A study of Mus musculus with 2 samples.

Results

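Mir122, Mir375, Mir192, Mir194-1, Mir194-2, Mir216a, Mir216b and Mir217 are 8 mouse microRNA genes that are known mainly from liver, pancreas and gut. They were taken by name from the 2202 microRNA genes quantified in hippocampus, the brain region of memory formation. The tissue came from wild-type females of the strain B6NCrl and was described as a layer of hippocampus, with no layer named and no age given. The 2 libraries are biological replicates 1 and 2 of this single untreated group. They have separate biosample records and share a donor record, and nothing states that they came from separate animals. Spread between the libraries may therefore be technical, and their adapters were trimmed after different protocol documents, so preparation and biosample cannot be told apart.

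A microRNA is cut from a hairpin transcript into a short strand that pairs with messenger RNAs, mainly through bases 2 to 8, the seed. Mir122 is the dominant microRNA of hepatocytes. Mir375 is a microRNA of pancreatic islets, where it restrains insulin secretion, and other neuroendocrine cells also make it. Mir217, Mir216a and Mir216b are microRNAs of the enzyme-secreting acinar cells of the exocrine pancreas. Mir192 and the Mir194 genes are prominent in intestine, liver and kidney.

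Mature sequences show which of these genes a short read can be assigned to. RefSeq (GRCm38.p6) gave the 5p arms of the Mir217 and Mir216 genes, which have different seeds, shown in capitals:
mmu-miR-217-5p: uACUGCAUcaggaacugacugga
mmu-miR-216a-5p: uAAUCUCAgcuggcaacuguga
mmu-miR-216b-5p: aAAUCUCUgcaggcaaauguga
They lie on the plus strand at chr11:28763761-28763783, chr11:28757018-28757039 and chr11:28746204-28746225. The seeds of miR-216a-5p and miR-216b-5p differ at 1 base, and their longest common run is 6 bases. No other mature microRNA in the RefSeq table had the seed of any of these arms.

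The Mir192 arm is shown beside that of Mir215, its seed relative, again with the seed in capitals:
mmu-miR-192-5p: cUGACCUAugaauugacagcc
mmu-miR-215-5p: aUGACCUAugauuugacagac
They lie at chr19:6264857-6264877 and chr1:185313610-185313630. Their seeds are identical and the arms differ at 3 of 21 positions, with a longest common run of 10 bases. A full-length read of either arm can thus be told from the other.

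The Mir194 genes are shown because one of their arms is the same at both loci. Mir194-1 on chromosome 1 and Mir194-2 on chromosome 19 encode an identical 5p arm of 22 bases, given with its seed in capitals, and 3p arms that differ at 4 positions, which are the capitals in those lines:
mmu-miR-194-5p: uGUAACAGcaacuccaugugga
mmu-miR-194-1-3p: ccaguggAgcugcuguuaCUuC
mmu-miR-194-2-3p: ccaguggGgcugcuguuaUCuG
The 5p copies lie at chr1:185313325-185313346 and chr19:6264658-6264679, and the 3p arms at chr1:185313360-185313381 and chr19:6264694-6264715. The longest stretch shared by the Mir194 hairpins is 22 bases, the whole 5p arm. A read of exactly this arm maps to both places and was counted for neither gene, so the counts below leave out such reads. The other 6 hairpins shared at most 13 bases with any hairpin elsewhere.

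The genes fall into 5 places in mm10. Mir217 (chromosome 11, 28763728 to 28763835) and Mir216a (28757012 to 28757083) lie in an intron of the long noncoding RNA Gm12082. Mir216b (28746191 to 28746276) lies on the same strand, 10.8 kb before Mir216a by start position, and Mir216c is annotated on the opposite strand over it. Mir194-2 (chromosome 19, 6264643 to 6264728) and Mir192 (6264844 to 6264932) start 201 bases apart and overlap no annotated gene. Mir194-1 (chromosome 1, 185313319 to 185313385) lies in an intron of 2010103J01Rik, opposite to Iars2, with Mir215 as its neighbour. Mir375 (chromosome 1, 74900658 to 74900721) overlaps no annotated gene, and Mir122 on chromosome 18 lies in an exon of the long noncoding RNA AC157910.3.

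Sense counts over all microRNA genes were 6713867 in replicate 1 and 5901107 in replicate 2. Reads with more than 1 place in the genome, given to no gene, were 43.9% and 45.9% of all reads. Levels are in CPM, counts scaled to a common total of these sense counts. A read here spans one mature arm, so CPM was not divided by hairpin length, and the order of the 8 mean levels was the same per 100 bases of hairpin. A brain list of 17 microRNA genes, led by Mir132, Mir128-1 and Mir383, summed to 42082 CPM in replicate 1 and 38140 CPM in replicate 2. Of the 17, 16 had a count and 13 averaged at least 10 counts. Mir124a-2, one of several near-identical copies, was at 0, and the other Mir124a copies had at most 8 counts in a library.

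The 8 genes together were a minor part of the profile. They had 4023 counts in replicate 1 and 2098 in replicate 2, or 599 and 356 CPM (477 ± 172 CPM, SD, n = 2). These are shares of 0.0599% (exact 95% interval 0.0581 to 0.0618) and 0.0356% (0.0340 to 0.0371) of sense counts. Mir375 alone supplied 82.7% of their counts in replicate 1 and 83.5% in replicate 2. All 8 genes had at least 1 count in some library, 6 had counts in both, and 3 had a mean of 10 CPM or more.

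**Figure D1:**
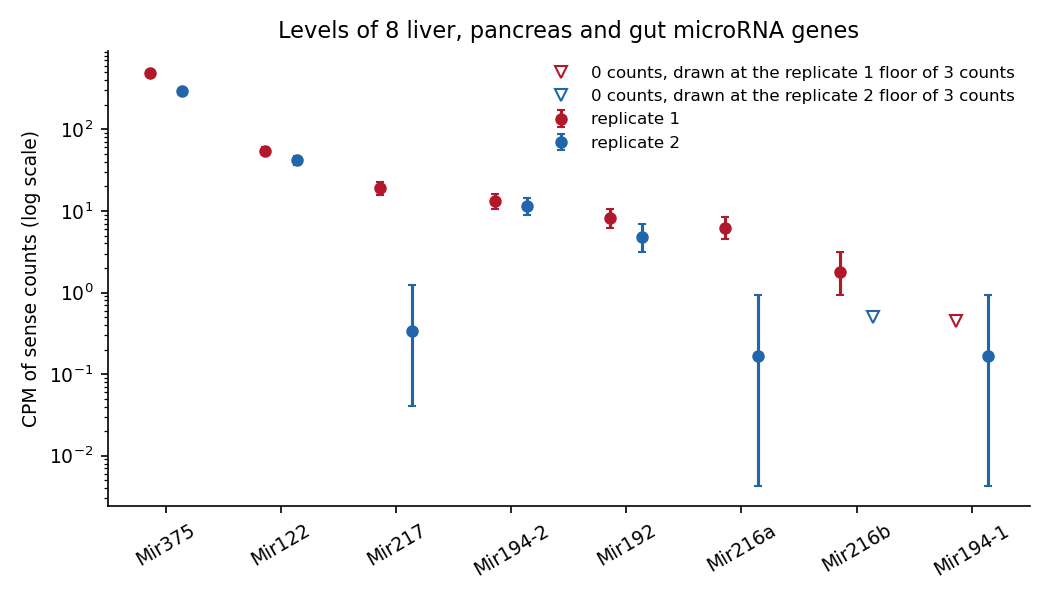
CPM of sense counts on a log axis for each of the 8 genes in replicate 1 (red) and replicate 2 (blue), with exact 95% Poisson intervals, and open triangles where a library had 0 counts, drawn at the level of 3 counts. Mir375 and Mir122 stand highest in both libraries, and Mir217, Mir216a and Mir216b are visible in replicate 1 and at or near the detection limit in replicate 2.

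Mir375, the islet microRNA, was the most abundant of the set. It had 3327 counts in replicate 1 (exact 95% Poisson interval 3215 to 3442) and 1751 in replicate 2 (1670 to 1835). These are 496 and 297 CPM, with a mean of 396 ± 141 CPM (SD, n = 2). Mir375 ranked 125 by mean level among the 787 microRNA genes with a count in either library, 123 in replicate 1 and 130 in replicate 2.

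Mir122, the hepatocyte microRNA, came next. It had 370 counts in replicate 1 (interval 333 to 410) and 248 in replicate 2 (218 to 281), or 55.1 and 42.0 CPM, a mean of 48.6 ± 9.25 CPM (SD, n = 2). Its rank was 221 by mean level, 218 in replicate 1 and 225 in replicate 2. The ranges of Mir375 and Mir122 over the libraries overlapped neither each other nor those of the other 6 genes.

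Of the gut, liver and kidney pair on chromosome 19, Mir194-2 had 89 counts in replicate 1 (interval 71.5 to 110) and 67 in replicate 2 (51.9 to 85.1). These are 13.3 and 11.4 CPM, a mean of 12.3 ± 1.35 CPM (SD, n = 2). Mir192 had 55 counts (41.4 to 71.6) and 28 counts (18.6 to 40.5), or 8.19 and 4.74 CPM, a mean of 6.47 ± 2.44 CPM (SD, n = 2). Mir194-2 was above Mir192 in both libraries, even though its count leaves out reads of the shared 5p arm. Mir194-1 had 0 counts in replicate 1, which allows up to 0.447 CPM, and 1 count in replicate 2, or 0.169 CPM. Its neighbour Mir215 had 1 count in each library. At this depth, and without reads of the shared arm, expression from the chromosome 1 locus was not detectable above single reads.

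The acinar microRNAs differed most between the libraries. Mir217 had 128 counts in replicate 1 (interval 107 to 152) and 2 in replicate 2 (0.242 to 7.22), or 19.1 and 0.339 CPM. Mir216a had 42 counts (30.3 to 56.8) and 1 count (0.0253 to 5.57), or 6.26 and 0.169 CPM. Mir216b had 12 counts (6.2 to 21) and 0 counts (0 to 3.69), or 1.79 CPM in replicate 1 and an upper limit of 0.625 CPM in replicate 2. Their means of 9.70 ± 13.2, 3.21 ± 4.30 and 0.894 ± 1.26 CPM (SD, n = 2 each) have SDs larger than the means. By mean level Mir217 fell between Mir194-2 and Mir192, but its range spanned those of both, so its place beside them rests on the library: above Mir194-2 in replicate 1 and below Mir192 in replicate 2. Mir217 was above Mir216a in both libraries.

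**Figure D2:**
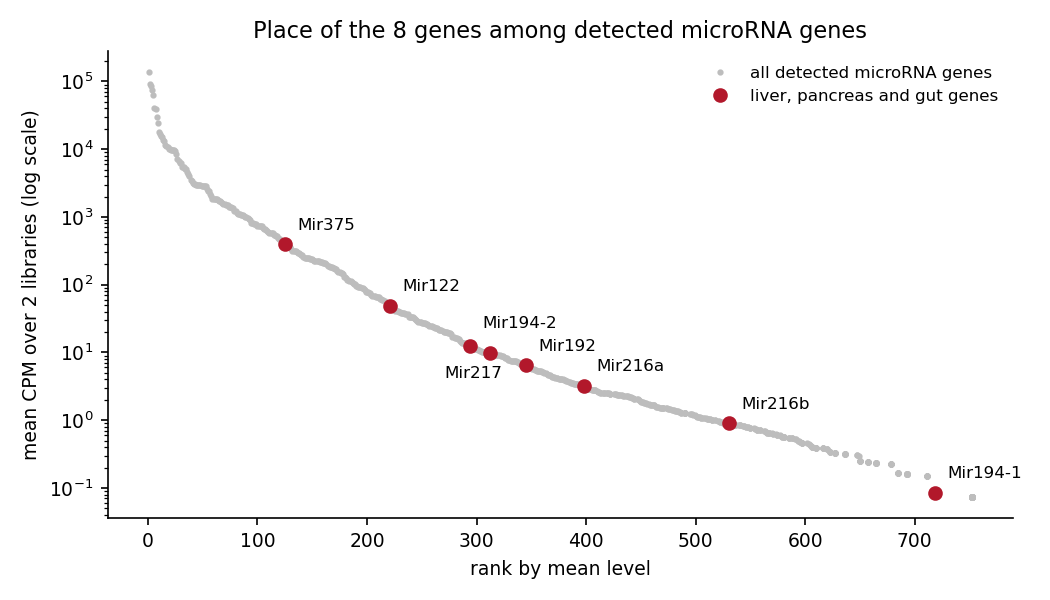
Mean CPM over the 2 libraries on a log axis against rank for all 787 detected microRNA genes (grey), with the 8 liver, pancreas and gut genes in red. Mir375 ranks 125 and Mir122 ranks 221, the others lie from rank 294 (Mir194-2) to rank 718 (Mir194-1).

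Replicate 1 was then compared with replicate 2 gene by gene. For 466 genes, those averaging at least 10 counts, Fisher's exact test (2-sided) compared a gene's counts with all other sense counts in the libraries, with Benjamini-Hochberg adjustment over the 466. It covers counting error only and compares these libraries, not conditions. Log2 ratios are replicate 1 over replicate 2, after adding 0.5 counts and scaling by TMM, the trimmed mean of M values from edgeR. Over all tested genes their median was -0.02, and 0.18 under plain totals.

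Of the 8 genes, 6 passed the count minimum. Mir217 and Mir216a passed it through replicate 1 alone, and Mir216b and Mir194-1 did not reach it. The exact test called 5 of the 6 higher in replicate 1 and none lower. Over all 466 genes it called 35.0% higher and 22.5% lower, so calls of this kind were common. At least 8-fold higher in replicate 1 were 5 of the 466 genes (1.07%), Mir217 and Mir216a among them, which is a description, since both had to be high in replicate 1 to be tested. Without the 6 genes of the set this was 3 of 460 (0.652%). The median log2 ratio was 0.56 over the 6 genes, 2 of which had to be higher in replicate 1 to be tested, beside -0.02 over all tested genes.

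Mir217 had the largest log2 ratio of all 466 tested genes, at 5.30 (counting SE 0.92, adjusted exact p = 8.53e-32). With no counts added and plain totals in place of TMM, its level was 56.3-fold higher in replicate 1 (exact 95% interval 15.3 to 469). Mir216a had the third largest, at 4.44 (SE 1.20, adjusted exact p = 2.21e-10), a 36.9-fold difference (6.27 to 1490). With 3 counts in place of the 0 in replicate 2, Mir216b was 3.52-fold higher in replicate 1. This value leaves out the counting error of its 12 counts (interval 6.2 to 21). The folds of Mir216a and Mir216b also use plain totals. The other 3 genes at least 8-fold higher in replicate 1, named after their values were seen, were Mir3547, Mir298 and Mir31, each with at least 103 counts in replicate 2. No tested gene was 8-fold lower in replicate 1. Outside the set, of 179 tested genes with a mean under 100 counts, 0 (0.00%) were 8-fold higher in replicate 1. Mir217 and Mir216a had to be high in replicate 1 to be tested, so their ranks, their p-values and this contrast are descriptions.

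**Figure D3:**
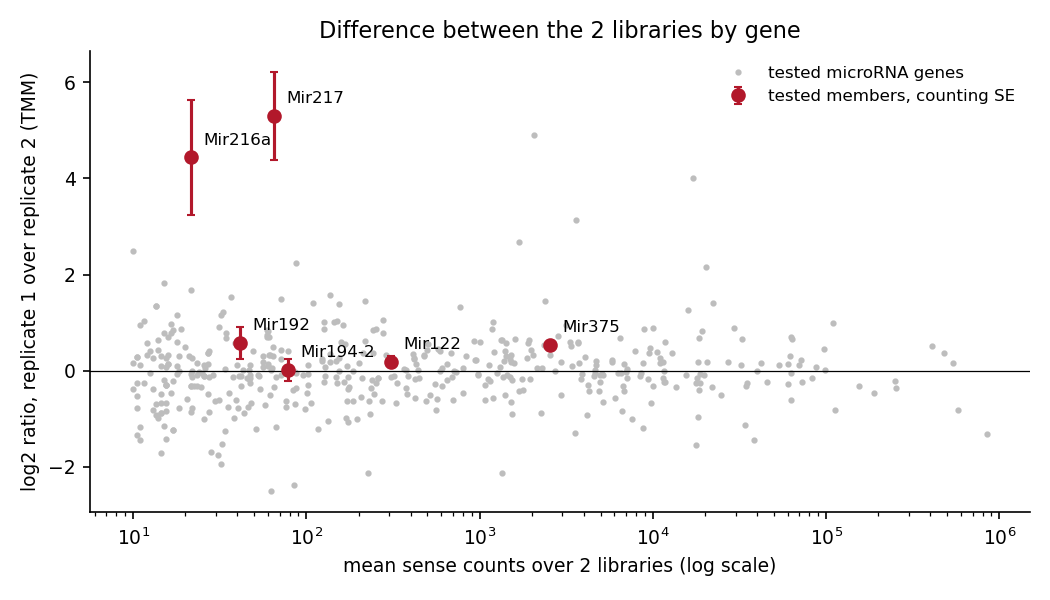
Log2 ratio of replicate 1 over replicate 2 against mean sense counts (log axis) for 466 tested microRNA genes (grey) and the 6 tested genes of the set (red, bars are counting SE). Mir217 and Mir216a lie at 5.30 and 4.44, while Mir375, Mir122, Mir194-2 and Mir192 lie between 0.02 and 0.58, inside the spread of the other genes.

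The CPM of Mir375, Mir122, Mir192 and Mir194-2 differed by less than 2-fold. For Mir192 (1.73-fold) the exact 95% interval of 1.08 to 2.83 extends past 2-fold. Mir375 was higher in replicate 1, with a log2 ratio of 0.54 (SE 0.04, adjusted exact p = 1.23e-69), the 88th largest of 466. Mir192 had a ratio of 0.58 (SE 0.33, adjusted exact p = 0.0359) and Mir122 of 0.19 (SE 0.12, adjusted exact p = 0.00193). Both calls ended when an exact binomial test used TMM library sizes in place of plain totals, with adjusted p = 0.126 and 0.164, a test that called 28.5% of all 466 genes higher in replicate 1. Mir194-2, at 0.02 (SE 0.23, adjusted exact p = 0.486), did not pass, and its CPM was 1.17-fold that of replicate 2 (exact 95% interval 0.841 to 1.63). The SD of log2 ratios over all tested genes was 0.82, larger than the ratio of any of these 4 genes.

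The acinar genes, neighbours on chromosome 11, were all lower in replicate 2. Mir216b, Mir216a and Mir217 summed to 182 counts in replicate 1 and 3 in replicate 2, or 27.1 and 0.508 CPM, a 53.3-fold difference (exact 95% interval 18 to 261). The other 5 genes summed to 3841 and 2095 counts, or 572 and 355 CPM, a 1.61-fold difference (1.53 to 1.70). In replicate 1 Mir217 made up 75.3% of the reads of the Mir217 and Mir216a pair (exact 95% interval 68.1 to 81.6) and in replicate 2 66.7% (9.43 to 99.2, from 3 reads). Fisher's exact test found no difference in this split (2-sided p = 1, and 1 after adjustment over 2 pairs), and 3 reads leave almost any split possible.

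**Figure D4:**
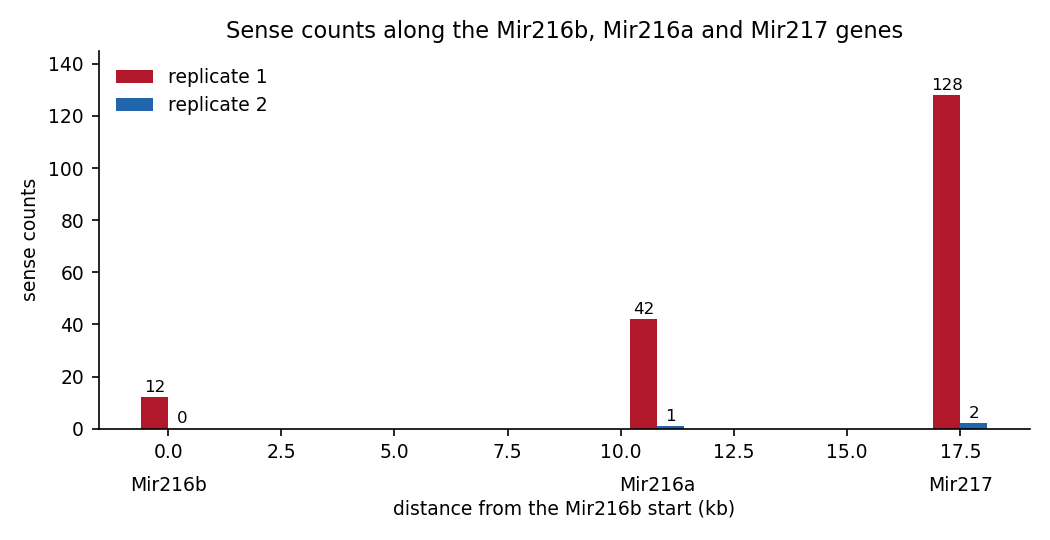
Sense counts in replicate 1 (red) and replicate 2 (blue) at Mir216b, Mir216a and Mir217, placed by distance in kb from the start of Mir216b. Counts in replicate 1 are 12, 42 and 128 from left to right, against 0, 1 and 2 in replicate 2.

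In the pair on chromosome 19, Mir194-2 held 61.8% of the reads of the Mir194-2 and Mir192 pair in replicate 1 (exact 95% interval 53.3 to 69.8) and 70.5% in replicate 2 (60.3 to 79.4), a difference that did not pass Fisher's exact test (2-sided p = 0.211, adjusted p = 0.423).

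A pattern of 10 or more counts in one library and 3 or fewer in the other, thresholds set after the values were seen, was uncommon. Of 486 genes with 10 or more counts in replicate 1, 13 had 3 or fewer in replicate 2 (2.67%), and Mir217, Mir216a and Mir216b were 3 of those 13. By counts in replicate 1, Mir10b followed Mir217 and Mir216a, with 18 counts in replicate 1 and 2 in replicate 2. Of 452 genes with 10 or more counts in replicate 2, none had 3 or fewer in replicate 1.

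For each tested gene of the set, the gene outside the set closest in level was found by the Euclidean distance of log2(CPM + 1) over the 2 libraries. Mir375 lay nearest to Mir666 (3176 and 1661 counts in replicates 1 and 2, distance 0.10), Mir122 to Mir155 (360 and 220 counts, 0.17), Mir194-2 to Mir3076 (90 and 71 counts, 0.08) and Mir192 to n-TSaga9 (51 and 26 counts, 0.13). Mir216a lay nearest to Mir103-1 (25 and 5 counts, 0.90). Mir217 had no close neighbour outside the set: the nearest there, Gm22650 (58 and 15 counts), was at a distance of 1.76. Genes of the set, such as Mir216a, were not candidates.

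Of 4 other microRNA genes of the same organs, Mir215 is given above. Mir483, which lies within the growth factor gene Igf2 and is abundant in fetal liver, had 174 counts in replicate 1 and 133 in replicate 2, or 25.9 and 22.5 CPM. Mir148a, abundant in pancreas and liver, had 51 and 43 counts, or 7.60 and 7.29 CPM. Neither passed the exact test, with adjusted exact p = 0.32 and 0.932. Mir802, of liver and islets, had 0 counts in both libraries, where 3 counts would be 0.447 CPM in replicate 1 and 0.508 CPM in replicate 2.

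Lists of other tissues outside the brain were read beside the 8 genes. The 10 genes of other epithelia, led by Mir200b, Mir429 and Mir183, had 464 CPM in replicate 1 and 798 CPM in replicate 2, with 3 of 9 tested genes higher in replicate 1 and 6 lower by the exact test, which called 35.0% of all tested genes higher and 22.5% lower. The 9 genes of heart and skeletal muscle had 37.4 CPM in replicate 1 and 23.0 CPM in replicate 2, nearly all from Mir206, and 6 of the 9 were at 0 in both libraries. The 7 blood genes had 1386 and 1853 CPM, led by Mir150, with 4 of 5 tested genes higher in replicate 1 (35.0% of all tested genes), among them Mir451a of red cells at 404 and 149 counts, and 1 lower (22.5% of all tested genes), and with Mir142b at 0. The listed name Mir486b was not matched. None of these list sums differed by more than 2-fold, and their part in the Mir217 and Mir216 difference was not tested.

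**Figure D5:**
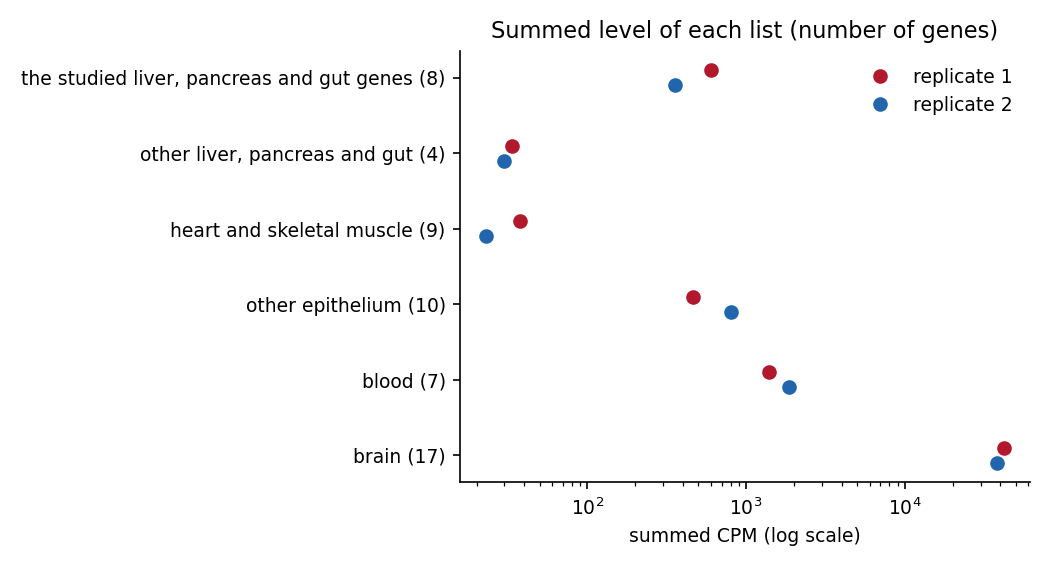
Summed CPM (log axis) of each list in replicate 1 (red) and replicate 2 (blue), with the number of genes in parentheses. The 8 genes stand at 599 CPM in replicate 1 and 356 CPM in replicate 2, far below the brain list at 42082 and 38140 CPM and close to the list of other epithelia at 464 and 798 CPM.

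The strand opposite to the 8 genes was almost empty, with 0 antisense counts in replicate 1 and 2 in replicate 2, both at Mir194-1. When strand was ignored, the 12 reads of Mir216b in replicate 1 were assigned to no gene, because Mir216c is annotated over the same bases.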

How the data were processed

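MicroRNA sequencing was done on 2 hippocampus libraries, with a size range below 30 nt per the labels. The authors deposited raw whole-number counts per microRNA gene, on the mm10 assembly with GENCODE M21 as the notes filed with each library state. Which aligner and counter were used is not given in the sources used here. The third column of each file, identified from its values as counts on the strand of the gene, was used. Library sizes exclude the rows of read classes. All 2202 identifiers matched GENCODE M21 microRNA genes, and 7 of the 8 genes were in RefSeq's microRNA table.

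With 1 library on each side edgeR's quasi-likelihood test had no residual degrees of freedom, so Fisher's exact test was used (scipy 1.17.1), at an adjusted threshold of 0.05. Scaling used TMM from edgeR 4.0.16, with plain totals and DESeq2 1.42.0 size factors as alternatives. TMM scaling, log2 ratios and Fisher's test were run on simulated counts with Poisson error and set changes in some genes. The simulation held no other spread between libraries, so it cannot tell how the test treats such spread. Fisher's test compares shares of plain totals, so a test with TMM sizes was added after seeing the data. Exact Poisson, Clopper-Pearson and conditional intervals have a 95% level, and a 0 was given a floor of 3 counts per library. Reads carry no molecular identifiers, so these intervals and the floor express counting error alone. Named genes were the 8 genes, every microRNA gene within 10 kb and, for each tested gene, the nearest gene by level outside the set. Also named were Mir215, Mir802, Mir483 and Mir148a, and up to 3 leading genes of other lists. Others are marked. The genes and lists were chosen with earlier results of these data known.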

Additional observations from a re-analysis of the deposited data

How the results depend on the processing

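No log2 ratio changed sign under any alternative run. Of 40 alternative values of the library ratio 37 kept their call, and 3 lost it: Mir122 and Mir192 with TMM sizes in the exact test, and Mir192 with no filter on low counts (adjusted p = 0.0588). Fisher's test uses neither scaling nor added counts, so calls under plain totals, DESeq2 size factors or 1 added count could not change. The log2 ratio of Mir217 lay between 5.04 and 5.50 and that of Mir216a between 4.04 and 4.64 over the alternatives. The number of genes of the set called higher in replicate 1 was 5 of 6, beside 35.0% of all 466 tested genes. It was 3 of 4 at a mean of 50 or more counts (46.3% of all 328 tested), Mir217 among the 3. With TMM sizes it was 3 of 6 (28.5% of all 466), Mir217 and Mir216a among the 3. Both are also among the 5 of 6. Under a filter on low counts, either gene could pass only by being high in replicate 1. The counts of calls under a filter are therefore descriptions. With no filter 5 of 8 tested genes of the set were called higher in replicate 1, beside 165 of all 787 tested genes. Mir192 was then not called and Mir216b was. The summed level was 477 CPM, and 201 when scaled to all reads, a total that also holds reads that were given to no gene. It ranged from 356 to 599 CPM without replicate 1 or replicate 2. For Mir217, Mir216a, Mir216b and Mir194-1 the SD exceeded the mean, so no fall in level could leave 1 SD. Without strand Mir216b was at 0 CPM. With counts of 12 or fewer, the levels of Mir194-1 and Mir216b, and of Mir217 and Mir216a in replicate 2, have wide counting intervals. No paired analysis was possible because there is a single group.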
